A study of Mus musculus with 23 samples.

Results

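The immediate early AP-1 and Egr genes described here are Fos, Fosb, Jun, Junb, Jund, Egr1, Atf3, Ier2, Ier3 and Zfp36, 10 of the 37620 genes counted in mouse melanomas. They were taken by name from a list, and each matched 1 Ensembl identifier. Immediate early genes are switched on within minutes of a growth factor, stress or injury signal, without the need for new protein synthesis. Kinases such as Erk, Jnk and p38 activate factors already bound at their promoters, and most of the transcripts decay soon after. Fos and Jun proteins pair into the AP-1 transcription factor, and Egr1 is a zinc finger factor with its own DNA site. In skin, AP-1 is known for its part in the response to UV light and in keratinocyte growth, and in melanoma cells Fos and Jun respond to the MAP kinase pathway. Because these transcripts respond within minutes, they are also known to respond to tissue handling.

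The study measured RNA in 23 tumours of UV-induced melanoma in mice. Lung metastases (2 libraries), metastases from lymph nodes (7 libraries, labelled brachial, cervical, inguinal or only lymph) and HPN primary melanomas (7 libraries) came from Nme1+/- / Nme2+/- mice. HP primary melanomas (7 libraries) came from mice labelled Nme1wt / Nme2wt. HP and HPN are the submitters' codes and the labels do not spell them out. In the published model of this kind HP stands for an Hgf transgene with loss of Cdkn2a, which both genotypes would then carry, and those alleles were not checked here. No metastasis of HP mice was analysed here, so sites are compared in HPN tumours only. Titles give numbers that join an HPN primary to its metastases, and they were read as animals: numbers 3 to 7 have a node and a primary, and numbers 3 and 4 also a lung metastasis. Number 7 has a pair of nodes, 7a and 7b, which were summed for tests and averaged for group means, so that nodes count as n = 6. The labels give no age and do not say that equal group labels mean separate litters, so each p-value speaks only of the spread among the libraries at hand.

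Libraries held 18870759 to 89481553 gene counts, and the smallest count of any of the 10 genes in any library was 52, for Fosb. In 8 libraries (nodes 7a, 7b and 8, HPN primary 7, and HP tumours 3, 6, 7 and 9) the counting summary lists 196 to 3709 reads of too low alignment quality, and in the remaining 15 it lists none. The 7 melanocyte markers summed to 23873 to 35437 CPM in lungs, 4428 to 43598 CPM in nodes, 6086 to 61655 CPM in HPN primaries and 7787 to 53014 CPM in HP primaries, where CPM is the count scaled to a library of 1000000 gene counts after TMM scaling. None of the 7 was at 0 in any metastasis. The tissue around the tumour was present too: 5 B cell markers summed to 135 to 1205 CPM in nodes, against 0.50 to 6.53 CPM in HPN primaries. The 8 keratinocyte markers summed to 2.14 to 21.9 CPM in nodes, against 2.10 to 6142 CPM in HPN primaries. The 4 alveolar markers summed to 6658 CPM in lung metastasis 4 and to 0.256 CPM in lung metastasis 3, where 2 of them were at 0, so lung 3 carried almost no alveolar RNA. In bulk tissue, fewer cells of a type and less RNA per cell cannot be told apart.

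The promoter letters of 4 genes are shown because these genes carry the results below: Fos and Jun, whose levels differed most between lung and node, and Junb and Zfp36, whose levels moved together most closely. Each runs from 250 bases before to 50 after the start in RefSeq's GRCm38.p6 table. Such windows were searched for 8 of the 10 genes. Egr1 and Ier2 were not among them, so nothing is said of their promoters. Capitals mark matches to TATAAA and to the CArG box, the site that serum response factor is known to bind.
Fos, chr12:85473640-85473939, + strand: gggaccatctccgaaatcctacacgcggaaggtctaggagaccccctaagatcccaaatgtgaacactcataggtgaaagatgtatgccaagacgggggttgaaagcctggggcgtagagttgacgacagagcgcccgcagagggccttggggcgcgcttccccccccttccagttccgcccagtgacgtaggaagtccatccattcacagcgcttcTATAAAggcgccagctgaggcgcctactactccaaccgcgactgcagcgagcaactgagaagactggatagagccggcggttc
Jun, chr4:95052173-95052472, - strand: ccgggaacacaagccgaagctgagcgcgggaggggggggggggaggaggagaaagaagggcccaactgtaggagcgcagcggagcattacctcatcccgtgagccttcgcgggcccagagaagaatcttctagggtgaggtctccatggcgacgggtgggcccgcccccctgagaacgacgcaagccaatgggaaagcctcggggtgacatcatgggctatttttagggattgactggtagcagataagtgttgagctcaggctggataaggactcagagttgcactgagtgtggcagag
Junb, chr8:84978699-84978998, - strand: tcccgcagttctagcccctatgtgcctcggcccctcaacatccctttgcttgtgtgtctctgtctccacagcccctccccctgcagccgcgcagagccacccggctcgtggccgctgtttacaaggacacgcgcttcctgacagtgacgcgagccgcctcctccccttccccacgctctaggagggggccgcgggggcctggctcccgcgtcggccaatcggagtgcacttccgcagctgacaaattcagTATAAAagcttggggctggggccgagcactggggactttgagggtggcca
Zfp36, chr7:28379179-28379478, - strand: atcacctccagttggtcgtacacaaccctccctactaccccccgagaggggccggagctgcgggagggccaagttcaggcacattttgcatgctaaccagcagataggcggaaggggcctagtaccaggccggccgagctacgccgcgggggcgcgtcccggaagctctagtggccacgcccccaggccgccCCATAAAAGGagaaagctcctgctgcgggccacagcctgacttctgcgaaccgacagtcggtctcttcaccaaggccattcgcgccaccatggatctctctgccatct
The Zfp36 stretch holds a CArG box match 58 bases before the start, a sequence found in 1.63% of the 32851 promoters of this length in the table. It was the single CArG match among the 8 genes. TATAAA lies 33 bases before the start of Fos and at base 1 of the transcript in Junb, and 13.6% of all promoters hold it. A zinc finger site of the Egr type, GCGGGGGCG, lies 105 bases before the start of Zfp36 and 50 before that of Fosb, against 2.91% of all promoters. The GC box GGGCGG was found in 6 of the 8, against 35.7% of all promoters, and it can overlap the Egr-type site. Neither the cyclic AMP response element TGACGTCA (1.79% of all promoters) nor the AP-1 site TGANTCA (7.81%) was found in any of the 8 windows. Both strands were searched for each motif. A match is only a match of letters. A missing one says nothing of sites outside the window, nor of sites inside it that differ from these exact letters.

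Per kilobase of exon, the mean level over all 23 libraries was highest for Jund at 116 CPM per kb. Jund is the Jun protein that many resting cells keep. Jun followed at 64.2 CPM per kb, then Junb at 36.5, Atf3 at 27.9, Fos at 27.2, Ier3 at 24.3 and Ier2 at 18.2 CPM per kb. Zfp36 at 9.87, Egr1 at 7.97 and Fosb at 0.805 CPM per kb were the lowest. The genes differed more in how far they varied. The highest library had 17.6 times the CPM of the lowest for Ier3, 14.2 times for Jun, 14.1 times for Atf3 and 12.3 times for Fos. The same ratio was 3.54 for Jund and 2.91 for Ier2, the steadiest of the 10. In GRCm38, 877 of 1668 exon bases of Jund (52.6%) lie opposite the antisense gene Gm11175, which had 1870 counts in all 23 libraries together. Junb shares 7.52% of its exon bases with Prdx2, Jun 7.28% with Junos and Zfp36 3.60% with Gm44710, all on the opposite strand. The strand setting of the counting is not given in the sources used here, so reads of these partners cannot be told apart.

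**Figure D1:**
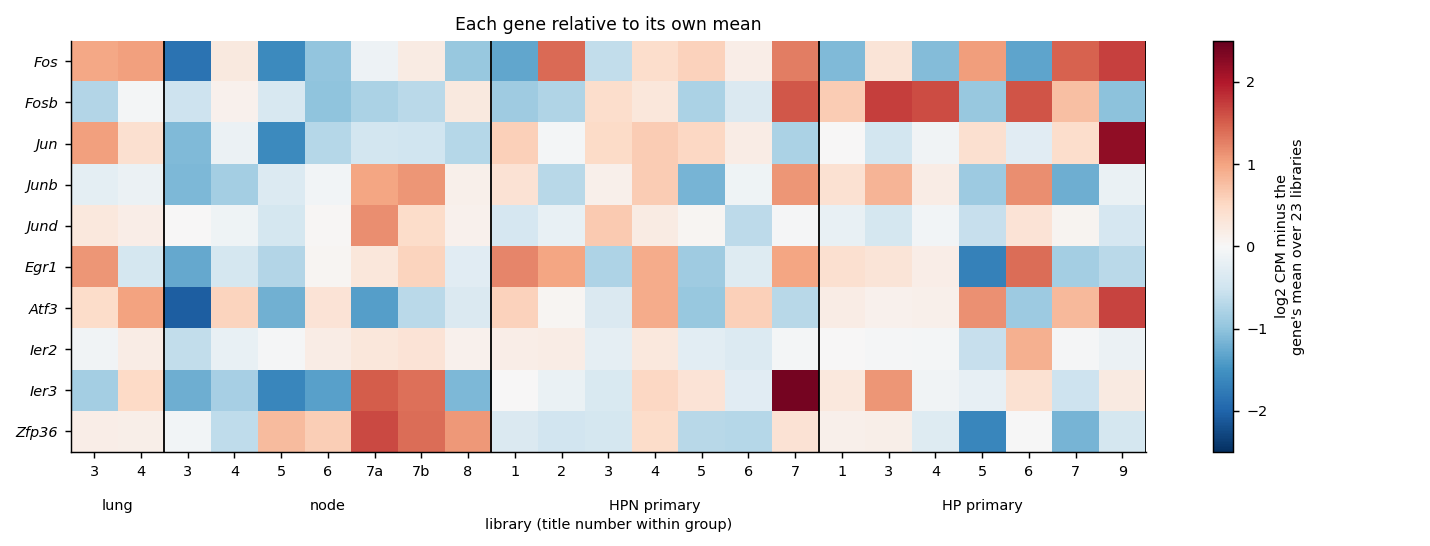
Heat map of the 10 genes (rows) in 23 libraries (columns, by group and title number); colour is log2 CPM minus the mean of that gene over the 23 libraries. Nodes 3 and 5 are low for Fos, Jun, Atf3 and Ier3, nodes 7a and 7b and HPN primary 7 are high for Ier3 and Junb, and HP primary 9 is high for Jun, Fos and Atf3.

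The first comparison asks whether primary tumours of Nme1+/- / Nme2+/- mice differ from those of Nme1wt / Nme2wt mice. None of the 10 genes passed the test, and neither did any other gene: 0 of 16578 genes tested, or 0%, were called by the quasi-likelihood test of edgeR at an adjusted p of 0.05, with 477 at an unadjusted p under 0.05. DESeq2 also called 0, with 851 at an unadjusted p under 0.05. The median log2 difference of the 10 was -0.09, beside -0.05 over all genes tested. The largest was that of Fosb, at -0.89 (SE 0.57, edgeR adjusted p = 0.951). Fosb is a Fos family partner of Jun, and its lowest, median and highest values were 1.88, 2.98 and 12.6 CPM in HPN primaries, against 1.69, 6.96 and 14.2 CPM in HP primaries. The ranges nearly coincide: HPN primary 7 alone came near the level of HP primaries 3, 4 and 6.

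The other 9 genes lay between -0.49 for Atf3 and 0.41 for Ier3 on the log2 scale. Atf3, a stress-induced partner of AP-1 proteins, averaged 56.3 ± 26.2 CPM in HPN primaries and 79.8 ± 46.2 CPM in HP primaries (SD, n = 7 each). Egr1 averaged 43.9 ± 23.5 CPM in HPN primaries and 33.8 ± 23.6 CPM in HP primaries. For both genes the difference of the means was smaller than either SD. Jun averaged 212 ± 61.3 CPM in HPN primaries and 269 ± 243 CPM in HP primaries. The wide SD of the HP primaries comes from HP primary 9, at 811 CPM, while the other 6 lay between 126 and 235 CPM. Fos and Junb differed by -0.09 each, and Jund, Ier2 and Zfp36 by 0.13, -0.12 and 0.12 on the log2 scale. For every gene the ranges of the genotypes overlapped.

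**Figure D2:**
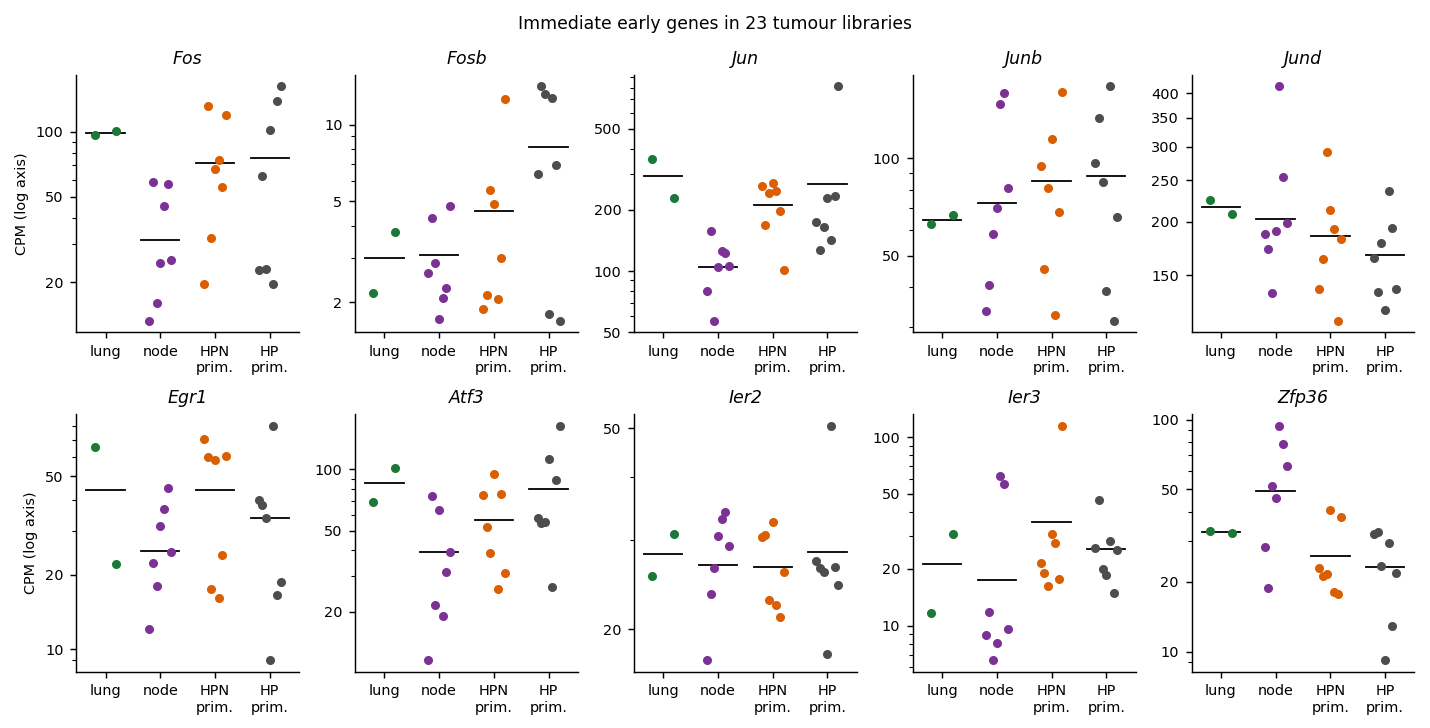
CPM (log axis) of each gene in lung metastases, node metastases, HPN primaries and HP primaries; points are libraries and bars are group means, with nodes 7a and 7b averaged. Jun in nodes lies between 57.0 and 158 CPM, below both lungs at 229 and 356 CPM, while the HPN and HP primaries overlap in all 10 panels.

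The second comparison sets node metastases against HPN primaries. Jun fell, and it was the single gene of the 10 that passed the test, when 22.5% of all 19152 genes tested were called in either direction. Of all genes, 9.81% were called lower and 12.7% higher in nodes, so 1 of 10 lower and 0 of 10 higher is close to the background. Of the 10 differences 8 were negative, and the share of all genes with a negative difference was not counted. Among the 8, Ier2, at -0.01, changed its sign in 11 of 24 alternatives, and Junb and Atf3 in 1 each. The median of the 10 was -0.58 on the log2 scale, beside -0.08 over all genes tested.

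Jun is the partner that AP-1 dimers most often share. Its lowest, median and highest values were 57.0, 106 and 158 CPM in nodes, against 101, 241 and 271 CPM in HPN primaries. All nodes lay below 6 of the 7 primaries, and HPN primary 7, at 101 CPM, lay among the nodes. The log2 fold change was -1.05 (SE 0.26, edgeR quasi-likelihood adjusted p = 0.0115). Within title numbers, Jun was lower in the node than in the primary of the same number in 4 of 5, by -0.78 to -2.11, with number 7 the exception at 0.30. With the title number as a block the difference was -1.01 but no longer passed (edgeR adjusted p = 0.121). The keratinocyte markers moved with this comparison, all 8 of them lower in nodes with a median of -7.16 on the log2 scale. The 5 B cell and 6 T cell markers were all called higher in nodes, with medians of 8.01 and 4.94. The 7 melanocyte markers all had negative differences, with a median of -0.91 and none called. The part of these shifts in the differences of Jun and Fos was not tested beyond the keratinocyte covariate. With the keratinocyte mean as a covariate the difference of Jun was -0.77 (edgeR adjusted p = 0.0857). Without the 8 libraries that list reads of too low quality it was -1.25 (edgeR adjusted p = 0.0194). Those libraries alone hold 1 HPN primary, too few for a value of their own.

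Fos, the partner that gives AP-1 its stability on DNA, had 13.3, 25.0 and 58.6 CPM in nodes as lowest, median and highest, against 19.6, 67.2 and 133 CPM in HPN primaries. The ranges overlap between 19.6 and 58.6 CPM, and the median of the primaries lay above every node. The log2 fold change was -1.19 (SE 0.44), and it missed the threshold (edgeR adjusted p = 0.0634). The node value was below that of the primary in 5 of 5 title numbers. These differences ran from -0.20 for number 4 to -2.18 for number 5, with a median of -1.24. The share of all genes lower in the node in all 5 numbers was not counted, so this is not read as particular to Fos. DESeq2 called the pooled difference of Fos, at -1.18 (adjusted p = 0.029). It also passed without node 4 (-1.45, edgeR adjusted p = 0.0308) and without HPN primary 1 (-1.40, edgeR adjusted p = 0.0234). With the mean of the keratinocyte markers as a covariate it was -1.60 (SE 0.50, edgeR adjusted p = 0.0457), and it passed.

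Ier3, which is known to modify the survival of stimulated cells, was dominated by number 7. Nodes 7a and 7b had 62.1 and 56.2 CPM and the primary of that number 115 CPM, while the other 5 nodes had 6.57 to 11.8 CPM and the other 6 HPN primaries 16.3 to 30.8 CPM. Leaving number 7 aside on both sides, nodes and primaries do not overlap, and the share of all genes that do the same was not counted. Pooled, the log2 fold change was -1.02 (SE 0.62, edgeR adjusted p = 0.239). Within title numbers the node was below the primary in 5 of 5, by -0.84 to -1.98. Here too the share of all genes lower in all 5 numbers was not counted. With the title number as a block, Ier3 fell by 1.27 (SE 0.23, edgeR adjusted p = 0.0219). Without node 7 alone the difference was -1.98 (edgeR adjusted p = 0.0192).

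Zfp36 went the other way. It encodes a protein that binds AU-rich elements and speeds the decay of transcripts, those of cytokines and of Fos among them. It had 18.8, 48.8 and 86.3 CPM in nodes as lowest, median and highest, against 17.8, 21.6 and 40.8 CPM in HPN primaries. Nodes 5, 6, 7a, 7b and 8 lay above every primary, and nodes 3 and 4, at 28.3 and 18.8 CPM, lay among them. The log2 fold change was 0.91 (SE 0.32), just short of the threshold (edgeR adjusted p = 0.0533). It passed when any 1 of nodes 3 and 4 and HPN primaries 4 and 7 was left out, at 1.01 to 1.08 (edgeR adjusted p = 0.0127 to 0.0456). The B cell markers moved with it: nodes 4 and 3 had the lowest sums, 135 and 301 CPM, and the other nodes 632 to 1205 CPM. The part of node tissue in this difference was not tested.

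**Figure D3:**
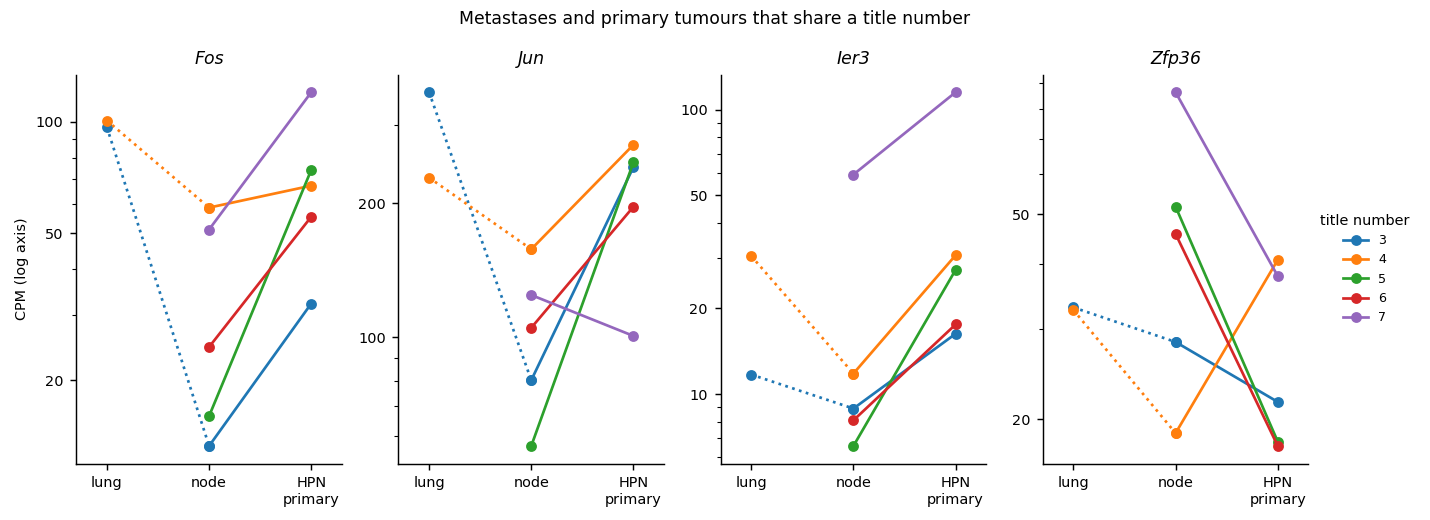
CPM (log axis) of Fos, Jun, Ier3 and Zfp36 in lung, node and HPN primary of title numbers 3 to 7; solid lines join node and primary, dotted lines lung and node, and nodes 7a and 7b are averaged. Fos and Ier3 are lower in the node in all 5 numbers, Jun in 4 of 5, and Zfp36 is higher in the node in 4 of 5.

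The remaining genes did not pass the test in this comparison. Egr1 averaged 24.9 ± 10.2 CPM in nodes (n = 6) and 43.9 ± 23.5 CPM in HPN primaries (SD, n = 7), a log2 difference of -0.84 (SE 0.42, edgeR adjusted p = 0.151). Atf3 averaged 39.1 ± 24.7 CPM in nodes and 56.3 ± 26.2 CPM in HPN primaries. Atf3 was lower in the node in 5 of 5 title numbers, with log2 differences of -0.26 to -0.37 in 4 of them and -1.70 in number 3. As for Fos and Ier3, the share of all genes that do the same was not counted. Fosb averaged 3.07 ± 1.21 CPM in nodes and 4.58 ± 3.81 CPM in HPN primaries. Junb, a Jun protein that can oppose Jun at some promoters, averaged 72.8 ± 43.1 CPM in nodes and 85.3 ± 43.2 CPM in HPN primaries. Both SDs of Junb exceed the difference. Jund averaged 203 ± 68.1 CPM in nodes and 186 ± 56.9 CPM in HPN primaries. Ier2, a nuclear protein induced with Fos and Egr1, averaged 26.8 ± 5.75 CPM in nodes and 26.6 ± 4.64 CPM in HPN primaries. Its log2 difference was -0.01 with an SE of 0.17.

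Lung metastases of numbers 3 and 4 were compared with the HPN primaries and with the nodes, in the same fit, so these comparisons share samples. Against HPN primaries none of the 10 genes passed the test, when 0.266% of all genes tested were called by edgeR. The median difference of the 10 was 0.15, beside -0.06 over all genes tested. The values ran from -0.71 for Ier3 (SE 0.92) to 0.60 for Atf3 (SE 0.57). Every range overlapped that of the primaries, and with 2 lungs the SE of Ier3, Fosb and Fos was at least 0.60.

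Against nodes, Jun was higher in lungs, 1 of 10 genes, when 5.04% of all genes tested were called in either direction, 1.96% of them higher and 3.09% lower. Jun had 356 and 229 CPM in lungs 3 and 4, against 57.0, 106 and 158 CPM in nodes as lowest, median and highest. Both lungs lay above every node. The log2 fold change was 1.50 (SE 0.35, edgeR adjusted p = 0.0347). The call does not hold with the title number as a block (1.27, edgeR adjusted p = 0.391), without the 8 libraries that list reads of too low quality (1.57, edgeR adjusted p = 0.0934), without lung 3 (1.17, edgeR adjusted p = 0.231), without lung 4 (1.77, edgeR adjusted p = 0.123) or without node 6, 7 or 8 (1.48 to 1.56, edgeR adjusted p = 0.0549 to 0.064). Fos had 96.6 and 101 CPM in lungs 3 and 4, against 13.3, 25.0 and 58.6 CPM in nodes. Here too the lungs lay above every node. How many of all genes separate the lungs from the nodes in this way was not counted. The log2 fold change of Fos was 1.68 (SE 0.58, edgeR adjusted p = 0.104), and without node 4 it was 1.93 (edgeR adjusted p = 0.0496).

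Of the 10 genes, 8 were higher in the lung than in the node of the same title number in both numbers: Fos, Jun, Junb, Jund, Atf3, Ier2, Ier3 and Zfp36. The share of all genes that do so was not counted, so this is not read as particular to these genes. In number 3 the differences were 2.14 for Jun and 2.82 for Fos on the log2 scale, and in number 4 they were 0.53 and 0.78. Junb, at 0.88 and 0.71 in numbers 3 and 4, and Zfp36, at 0.22 and 0.78, were higher in the lung within numbers although their pooled differences, -0.15 and -0.56, are negative. Atf3 had 68.8 and 102 CPM in lungs 3 and 4 and 11.6 and 73.8 CPM in nodes 3 and 4. Its pooled difference was 1.17 (SE 0.57, edgeR adjusted p = 0.239). Node 3 was the lowest library of the 23 for Fos and Atf3. Lymphocyte markers moved with this comparison, with B cell sums of 1.31 and 9.11 CPM in lungs and 135 to 1205 CPM in nodes. Their part in the difference was not tested. Between the lungs, Jun was higher in lung 3, which had almost no alveolar RNA, and Fos and Atf3 were higher in lung 4.

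**Figure D4:**
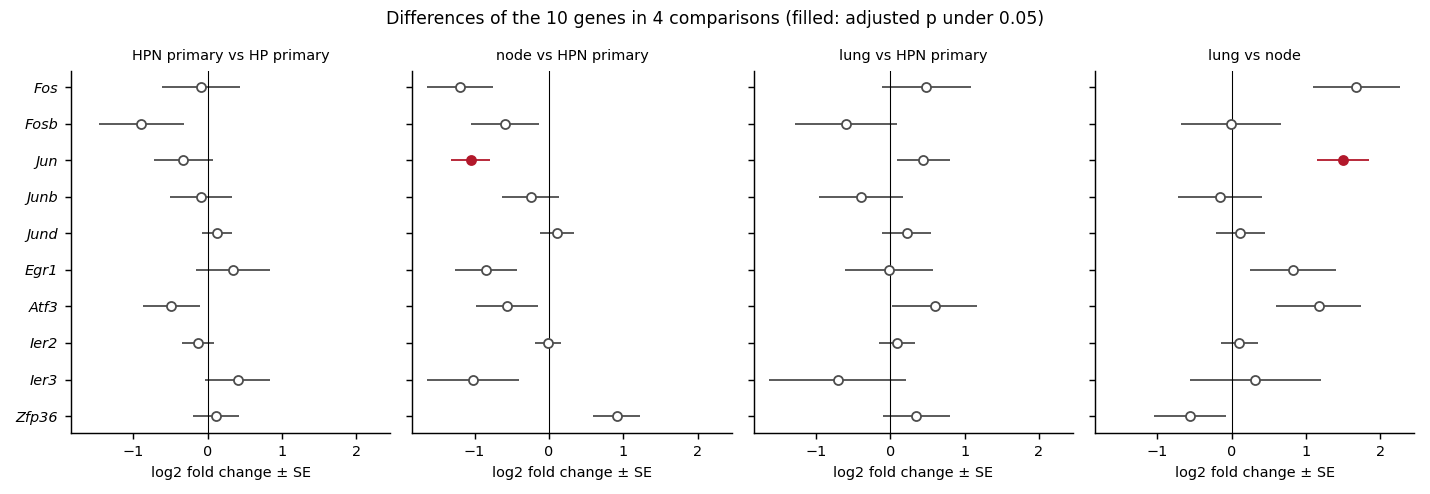
Log2 fold change ± SE of each gene in the 4 comparisons (panels), from the edgeR fits; filled points passed an adjusted p of 0.05. Jun is filled in the node against primary panel at -1.05 and in the lung against node panel at 1.50, and no point is filled in the other panels.

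Among the 14 primaries, Fos differed with the makeup of the sample, as the cell type markers show it. The mean log2 CPM of the keratinocyte markers lay between -0.44 and 2.36 in 6 primaries (HPN 2, 5 and 7 and HP 5, 7 and 9) and between 5.75 and 10.1 in the other 8. Fos had 74.1 to 163 CPM in the 6 and 19.6 to 67.2 CPM in the 8, so these samples do not overlap. For every other gene of the list the ranges overlapped. How many of all genes separate the same samples was not counted, so Fos cannot be called unusual in this. Junb ran the other way, with a median of 42.2 CPM in the 6 and 95.6 CPM in the 8, although HPN primary 7 had 160 CPM among the 6. Egr1 had medians of 17.6 and 39.1 CPM in the same samples, with HPN primaries 2 and 7 near 60 CPM among the 6. Jun had medians of 232 and 186 CPM, with overlapping ranges. These samples were set apart by the markers, not by a label, and no test was made. Both genotypes are in each set. Other markers separate the same samples. Fibroblast markers summed to 170 to 1887 CPM in the 6 and 2176 to 19387 CPM in the 8, and macrophage markers to 56.3 to 231 CPM in the 6 and 341 to 894 CPM in the 8. T cell, neutrophil and adipocyte sums did not overlap either and were also lower in the 6. Melanocyte markers summed to 32117 to 61655 CPM in the 6 and 6086 to 36333 CPM in the 8, with a small overlap. Hair follicle and muscle sums overlapped. Which of these goes with Fos cannot be told apart here, and their part was not tested.

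**Figure D5:**
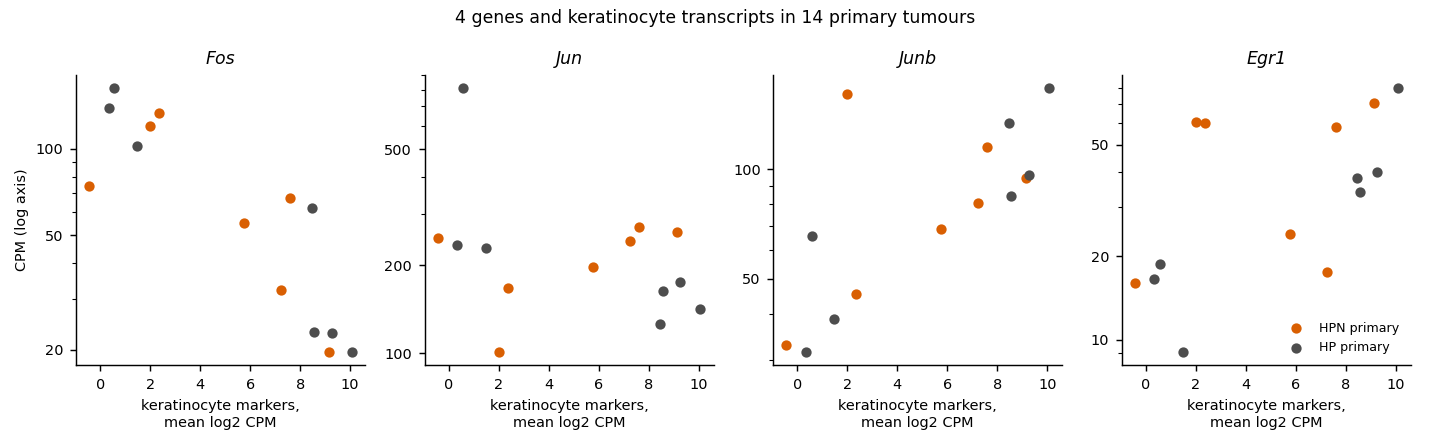
CPM (log axis) of Fos, Jun, Junb and Egr1 against the mean log2 CPM of 8 keratinocyte markers in the 14 primaries, coloured by genotype. Fos is above 74 CPM in the 6 primaries with few keratinocyte transcripts and below 68 CPM in the other 8, while Junb and Egr1 are mostly lower in the 6.

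The 10 genes did not move as 1 block across the primaries. Of the 45 pairs, 25 had a positive Spearman rho over the 14 primaries, and the median rho was 0.147. These primaries share preparation and scaling and differ widely in skin content, and the part of either in these values was not tested. Junb and Zfp36 were the closest pair, with a rho of 0.886 over 14 primaries. Their rho was 0.857 in the 7 HPN primaries, 0.857 in the 7 HP primaries, and 0.900 in the 9 primaries with no reads listed as too low in quality. It was 0.829 in the 6 primaries with few keratinocyte transcripts and 0.810 in the other 8, and the matching Pearson r over 14 was 0.839, or 0.838 without the 2 samples farthest from the median. Ier3 followed Zfp36 with a rho of 0.815, Egr1 followed Ier2 with 0.793, and Junb followed Egr1 with 0.776. The pairs among Junb, Egr1, Ier3 and Zfp36 all had a positive rho, of 0.530 to 0.886. Fos, Jun and Atf3 each had a negative rho with all 4 of these genes, from -0.565 for Fos and Junb to -0.121 for Fos and Ier3. In the 7 HP primaries alone all of these were negative, from -0.821 to -0.536. In the 7 HPN primaries alone many were positive, such as 0.429 for Fos and Ier3 and 0.286 for Jun and Zfp36. Others there stayed negative, such as -0.179 for Fos and Junb. In the 9 primaries with no reads listed as too low in quality, Jun had a positive rho with all 4, of 0.033 to 0.383. Fos stayed negative with all 4 in those 9, at -0.667 to -0.100, and Atf3 ran from -0.017 to 0.317. Fosb and Jun had the lowest rho, -0.741, which was -0.714 and -0.857 in the same 6 and 8 primaries. It was weaker in the 7 HPN primaries, at -0.429, than in the 7 HP primaries, at -0.857. In the 9 primaries with no reads listed as too low in quality it was -0.433. The rho of Fos and Junb, -0.565 over the 14, was 0.200 in the 6 primaries with few keratinocyte transcripts and -0.143 in the other 8. In the 9 primaries with no reads listed as too low in quality it was -0.667.

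Other AP-1 family genes were counted in the node comparison beside the 22.5% background. Of 7 tested, 1 fell and 1 rose. Fosl1, a Fos family gene tied to invasion, averaged 0.38 ± 0.25 CPM in nodes (n = 6) and 2.83 ± 2.51 CPM in HPN primaries (SD, n = 7), a log2 fold change of -2.88 (edgeR adjusted p = 0.0076). Batf, an AP-1 family gene of lymphocytes, averaged 5.92 ± 2.34 CPM in nodes and 2.02 ± 1.03 CPM in HPN primaries, a log2 fold change of 1.52 (edgeR adjusted p = 0.0204). Of 4 Egr genes and corepressors tested (Egr2, Egr3, Nab1 and Nab2) none passed. Egr2 averaged 8.47 ± 4.25 CPM in nodes and 19.3 ± 28.9 CPM in HPN primaries, which overlap.

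Of 10 genes known as AP-1 targets, 5 fell in nodes and none rose, when 9.81% of all genes tested were called lower and 12.7% higher. The median of the 10 was -1.06, beside -0.08 over all genes tested. Mmp13, a collagenase, averaged 0.46 ± 0.22 CPM in nodes and 20.4 ± 15.8 CPM in HPN primaries, a log2 fold change of -5.47 (edgeR adjusted p = 0.0016). Mmp10, another matrix protease, had a log2 fold change of -4.33 (edgeR adjusted p = 0.0124). Timp1, an inhibitor of such proteases, averaged 4.49 ± 1.87 CPM in nodes and 12.4 ± 3.66 CPM in HPN primaries. Ccnd1, a cyclin of G1 phase, averaged 305 ± 123 CPM in nodes and 830 ± 707 CPM in HPN primaries, and Hbegf, a ligand of the EGF receptor, also fell. Plaur, Mmp9, Plau, Mmp3 and Cd44 did not pass. Keratinocyte markers moved with these genes, and the part of lost skin was not tested.

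Of 38 other immediate early genes tested, 6 rose and 2 fell in nodes. These shares are near the background of 12.7% higher and 9.81% lower, and the median of -0.08 equals that of all genes. Klf2, a factor of resting lymphocytes and endothelium, averaged 97.4 ± 41.4 CPM in nodes and 11.7 ± 6.43 CPM in HPN primaries, a log2 fold change of 3.03 (edgeR adjusted p = 0.0020). Btg2 and Btg1, which restrain proliferation, rose by 1.87 and 1.61 on the log2 scale, and Tnfaip3, an inhibitor of NF-kappaB signalling, rose by 1.85. Dusp2 and Nfkbia also rose, while Nr4a2 fell by 1.25 and Ier5l by 1.09. The B and T cell markers moved with these genes, all 11 of them higher in nodes. Of 18 upstream kinases and factors 4 were called, a share near the 22.5% of all genes: Creb1, Elk4 and Rps6ka1 rose, by 0.63, 0.47 and 1.74, and Mapk3, which encodes Erk1, fell by 0.97. Of 9 tested genes of the Zfp36 family and the cytokines whose transcripts it is known to bind, Cxcl2, a neutrophil chemokine, fell to 0.53 ± 0.60 CPM in nodes, against 7.79 ± 8.18 CPM in HPN primaries. Of 7 heat shock genes, Hspa1b, Hspa1a and Hspb1 fell by 1.96, 1.37 and 2.97 on the log2 scale. For the Zfp36 and heat shock lists too, the background was 9.81% of all genes called lower.

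In the other comparisons few genes of these lists passed. Nab1, a corepressor of Egr proteins, was higher in lungs than in nodes by 0.84 (SE 0.18), with 139 to 142 CPM in lungs against 65.5 to 103 CPM in nodes. Tnfaip3 was lower in lungs than in nodes by 2.95 (SE 0.79). None of the lists had a called gene between the genotypes or between lungs and HPN primaries.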

How the data were processed

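Per the labels' protocols, total RNA was column-purified and the dual-indexed libraries were directional. The submitters' processing notes name bcl2fastq 1.8.4, the aligner STAR 2.5.3a and the build mm9. Each deposited file holds whole-number read counts per Ensembl gene that the authors had not normalized. What counted them, with which strand setting and annotation, is not given in the sources used here. Entries that name no gene were left out of library sizes. Symbols matched 32897 of 37620 identifiers (87.4%) in GENCODE vM21, whose build differs and which was used for names, exon lengths and overlaps.

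The 10 genes, the related lists and the markers were chosen with earlier results of these data known. All 10 genes are named in each comparison, and up to 4 list genes of smallest p, with other called list genes named after their values were seen. CPM used TMM over 23 libraries, with 0.5 CPM added on the log2 scale. The 14 primaries were fitted together, and the 15 HPN samples (nodes 7a and 7b summed) in another fit, with edgeR 4.0.16 in R 4.3.3 (filterByExpr, TMM, robust quasi-likelihood test, Benjamini-Hochberg over all genes tested, threshold 0.05). The code was tested on simulated data. Alternatives were DESeq2 1.42.0, other scalings and filters, all 4 groups in 1 fit, the title number as a block, a term for the 8 libraries that list reads of too low alignment quality or the fit without them, the keratinocyte mean as a covariate, and each sample left out. Depth was 18870759 to 89481553 gene counts per library, so counting error is small beside the spread between tumours.

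Titles pair HPN metastases with primaries, read as the same animal. Deviations of node and primary correlated at 0.249, 6.9e-05, -0.0819, 0.256 and 0.135 for numbers 3 to 7. Those of lung and node correlated at 0.388 and -0.240 for numbers 3 and 4. Equal numbers of the genotypes are different animals. Yet HPN and HP primaries of numbers 1 and 3 to 7 correlated at 0.555, 0.290, 0.428, 0.639, -0.012 and 0.545. These correlations therefore cannot show whether equal HPN numbers are the same animal.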

Additional observations from a re-analysis of the deposited data

Results flagged for a closer look

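In 7 of 30 gene and group combinations with 6 or 7 samples, 1 sample stood apart from the rest. The measure was the gap to its nearest neighbour relative to the whole range (Dixon's criterion). Its chance rate of about 1 of 20 holds for normally distributed values, and CPM were not checked for that. All 7 were the highest value of their group, so the 7 of 30 cannot be set against that rate. Nodes 7a and 7b averaged 59.1 CPM of Ier3, with the next node at 11.8 CPM. The primary of the same number, HPN primary 7, had 115 CPM of Ier3, with the next HPN primary at 30.8 CPM. HPN primary 7 also had the highest Fosb of its group, at 12.6 CPM, with the next at 5.51 CPM. Node 7 averaged 335 CPM of Jund, with the next node at 199 CPM. HP primary 3 had 46.6 CPM of Ier3, HP primary 6 had 50.6 CPM of Ier2, and HP primary 9 had 811 CPM of Jun, where the next HP primary had 235 CPM. The samples that stood apart (HPN primary 7, node 7 and HP primaries 3, 6 and 9) are all among the 8 libraries whose counting summary lists reads of too low alignment quality, and the part of that difference was not tested.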

How the results depend on the processing

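The number of the 10 genes called between nodes and HPN primaries was 1 in the fit reported, 2 with library totals, over 1 CPM, with a term for the 8 libraries that list reads of too low alignment quality or without them, or with nodes 7a and 7b apart, 3 with DESeq2, 1 with the title number as a block (Ier3 in place of Jun), 1 with the keratinocyte covariate (Fos in place of Jun) and 0 with all 4 groups in 1 fit. With 1 sample left out it ran from 1 to 3. Jun was called in 21 of 24 alternatives, all 13 that left out 1 sample among them, with adjusted p up to 0.0283 in those 13. It missed the threshold with the title number as a block (log2 -1.01, adjusted p = 0.121), with the keratinocyte covariate (-0.77) and with all 4 groups (-1.02, adjusted p = 0.0626). The other genes called in some alternative, beside Jun or without it, were Zfp36, Fos and Ier3: Zfp36 in 8 of 24 alternatives (0.58 to 1.08), Fos in 4 (-1.60 to -0.98), Ier3 in 4 (-1.98 to -0.37). Between lungs and nodes the number was 1 in the fit reported and 0 with all 4 groups, with the title number as a block, with a term for those 8 libraries and without them. With 1 sample left out it ran from 0 to 2, and Fos was called without node 4 (1.93, adjusted p = 0.0496). In the other comparisons it was 0 in every alternative run, the leave-one-out fits included. For HPN against HP primaries the title number joins different animals, and with it as a block 1 gene of 16578 was called, none of the 10. The block cut the genes called between nodes and HPN primaries to 1274, against 4313 without it. It changed no call of the 10 other than those of Jun and Ier3. The 2 lungs limit both lung comparisons, and leaving out 1 of them rests on the spread of the other groups. The cause of these changes was not tested.

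No difference that had passed changed its sign. Of the differences that had not passed, those below did, none of them called, with the reported log2 value in parentheses. Between HPN and HP primaries, Fos (-0.087) was 0.16 with the title number as a block, 0.32 with a term for the 8 libraries, 0.38 with those libraries left out and 0.015 with the keratinocyte covariate. Jun (-0.32) was 0.25 with the title number as a block and 0.30 with those libraries left out. Junb (-0.092) was 0.0051 with the title number as a block, 0.14 with a term for the 8 libraries and 0.17 with the keratinocyte covariate. Ier2 (-0.12) was 0.17 with those libraries left out. With 1 sample left out, Fos from -0.32 to 0.20, Jun from -0.45 to 0.23, Junb from -0.29 to 0.14, Jund from -0.022 to 0.23, Ier2 from -0.22 to 0.085, Ier3 from -0.23 to 0.61 and Zfp36 from -0.032 to 0.23.

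Between nodes and HPN primaries, Junb (-0.25) was 0.16 with the keratinocyte covariate. Jund (0.10) was -0.0023 with a term for the 8 libraries and -0.15 with those libraries left out. Atf3 (-0.57) was 0.10 with the keratinocyte covariate. Ier2 (-0.013) was 0.12 with library totals, 0.018 with no filter, 0.0075 with all groups in 1 fit, 0.051 with the title number as a block, 0.083 with the keratinocyte covariate and 0.037 with nodes 7a and 7b apart. With 1 sample left out, Jund from -0.098 to 0.26 and Ier2 from -0.093 to 0.099.

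Between lungs and HPN primaries, Egr1 (-0.014) was 0.024 with library totals, 0.0058 with no filter, 0.0099 with all groups in 1 fit, 0.71 with the title number as a block, 0.081 with a term for the 8 libraries, 0.066 with those libraries left out and 0.19 with the keratinocyte covariate. With 1 sample left out, Egr1 from -0.96 to 0.59 and Ier2 from -0.058 to 0.25.

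Between lungs and nodes, Fosb (-0.0063) was 0.30 with a term for the 8 libraries, 0.090 with those libraries left out, 0.0036 with the keratinocyte covariate and 0.055 with nodes 7a and 7b apart. Junb (-0.15) was 0.22 with the title number as a block, 0.35 with a term for the 8 libraries and 0.37 with those libraries left out. Jund (0.11) was -0.0018 with the title number as a block and -0.015 with nodes 7a and 7b apart. Ier3 (0.31) was -0.11 with nodes 7a and 7b apart. With 1 sample left out, Fosb from -0.49 to 0.36, Junb from -0.30 to 0.22, Egr1 from -0.12 to 1.41, Ier2 from -0.064 to 0.26 and Ier3 from -0.56 to 1.28.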

Other observations

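Over all 23 libraries, Ier3 and Junb followed the mean log2 CPM of the 10 genes most closely (Spearman rho 0.808 and 0.754, n = 23 libraries), and Atf3 and Jun least (0.079 and 0.130). Each of the 10 is itself part of that mean, so these values cannot be set against those of genes outside it. Among 12099 genes over 5 CPM, those like that mean included Furin, a protease that activates precursor proteins (rho 0.792), an unnamed gene, ENSMUSG00000073543 (0.781), Prep (0.780) and Fndc3b (0.778). Stat3, a transcription factor of cytokine signalling, had a rho of 0.768. The libraries share preparation, and some share an animal. The mean ran from 4.39 in node 3 to 5.99 in HPN primary 7.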
